A study of Mus musculus with 48 samples.

Results

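Serum amyloid A3 (Saa3), lipocalin 2 (Lcn2), secretory leukocyte peptidase inhibitor (Slpi), Wfdc17, haptoglobin (Hp) and the transcript U90926 are described here across 48 libraries of mouse macrophages. These 6 genes, of 51789 gene IDs in the count table, were chosen by their high counts in wild-type macrophages activated with LPS and IFN-γ (WT_M1), with no numeric threshold. Every comparison that uses WT_M1 is therefore a description without a test, and tests were run in the other groups.

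RNA was measured by QuantSeq 3′ sequencing, in which a read marks the 3′ end of a transcript, in 16 groups of 3 libraries. Each of 8 macrophage populations was given 10 µM AP-3-84, a compound known here by its code name alone, or its vehicle DMSO for 4 h, and the design asks what the compound does in each population. Bone marrow-derived macrophages from wild-type C57BL/6 (WT) or p53 knockout (KO) B6 mice were grown for 6 days in M-CSF at 10 ng/mL. They were left as they were (M0), kept a further 24 h with LPS at 100 ng/mL and IFN-γ at 50 ng/mL (M1), or kept 24 h in 10 ng/mL IL-4 plus 10 ng/mL IL-13 (M2). The peritoneal cells were picked with magnetic beads for the macrophage antigen that Adgre1 encodes. The ascites population came from mice washed 45 days after injection of the ovarian tumour line ID8, with the genotype B6(Cg)-Tyrc-2J/J in the labels. The thio population came from C57BL/6 mice 4 days after 1 ml of 3% thioglycollate. The labels give neither ages nor which part of the p53 gene is missing, and they do not say whether the polarizing cytokines stayed on during the 4 h of treatment or whether replicates came from separate animals. P-values therefore measure the spread between these libraries, which may be technical.

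Acute-phase proteins are secreted in large amounts during infection and injury, mostly by the liver, and some of their genes are also switched on in macrophages by microbial products. SAA3 is the serum amyloid A form made outside the liver in mice, haptoglobin binds free haemoglobin, and lipocalin 2 takes iron from bacteria by binding their siderophores. SLPI inhibits neutrophil elastase and cathepsin G through its whey acidic protein (WAP) domains, and Wfdc17 encodes another small secreted protein with a WAP domain. U90926 is annotated as protein-coding in GENCODE and as a long non-coding RNA in the RefSeq table. Transcription factors of the C/EBP, NF-kB and STAT families are the textbook regulators of acute-phase genes.

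The promoter sequences below are descriptions only, since the 6 genes were chosen for their high counts in WT_M1. Of the motifs searched, the C/EBP letters were marked because they matched most often, and shared control of the genes was not tested. The sequences come from RefSeq on GRCm38.p6, which held 5 of the 6 genes and had no entry for Hp. Each runs 5′ to 3′ on the gene's strand and is the longest stretch outside annotated exons within the 250 bases before the RefSeq start. The Slpi and U90926 windows end at the base before that start. The Slpi and Lcn2 windows lie inside the GENCODE spans of these genes given below, so they do not precede the GENCODE 5′ ends. In Saa3 the last 24 bases and in Wfdc17 the last 65 bases before it were left out as exonic. The bases left out, 197 in Lcn2, were not searched. Capitals mark matches to TTNNGNAA, a C/EBP-like motif searched on both strands, and in Saa3 also the 1 match to the interferon-stimulated response element (GAAA, any 2 bases, GAAA).
Saa3: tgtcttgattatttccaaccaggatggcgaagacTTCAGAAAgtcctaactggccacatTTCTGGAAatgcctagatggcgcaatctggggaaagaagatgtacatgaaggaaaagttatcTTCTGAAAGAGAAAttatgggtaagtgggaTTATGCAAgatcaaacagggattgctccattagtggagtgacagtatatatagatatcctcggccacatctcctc
Slpi: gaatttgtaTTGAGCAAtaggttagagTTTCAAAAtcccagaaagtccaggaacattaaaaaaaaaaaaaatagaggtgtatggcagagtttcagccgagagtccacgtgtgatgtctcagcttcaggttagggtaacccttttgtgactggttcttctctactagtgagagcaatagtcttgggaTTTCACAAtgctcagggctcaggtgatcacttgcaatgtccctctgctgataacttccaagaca
Wfdc17: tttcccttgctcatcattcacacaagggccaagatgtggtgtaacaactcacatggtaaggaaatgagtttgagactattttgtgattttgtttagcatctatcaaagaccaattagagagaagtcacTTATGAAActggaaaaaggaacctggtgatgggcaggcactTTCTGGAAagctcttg
U90926: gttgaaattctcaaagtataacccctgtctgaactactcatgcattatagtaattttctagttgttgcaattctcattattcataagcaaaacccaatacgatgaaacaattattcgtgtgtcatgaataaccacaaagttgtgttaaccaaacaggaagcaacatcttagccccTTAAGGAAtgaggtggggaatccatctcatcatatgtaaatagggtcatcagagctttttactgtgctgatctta
The Saa3 window, chr7:46715701-46715926 on the minus strand, held 4 matches to the C/EBP letters in 226 bases. The Slpi window, chr2:164356508-164356757 on the minus strand, held 3 in 250 bases. The Wfdc17 window, chr11:83703806-83703990 on the plus strand, held 2 in 185 bases, and the U90926 window, chr5:92215409-92215658 on the minus strand, held 1 in 250 bases. Such a short motif is common: at least 1 match stood in 34.8%, 36.8%, 30.7% and 36.8% of all 32851 promoters cut to the same 4 windows. The share with several matches was not counted. In Lcn2 the window left after removing exons was 53 bases long and held 0 matches. The interferon-response letters of Saa3 overlapped one of its C/EBP matches, and 2.69% of all promoters held such letters in that window. No match to the interferon-γ motif TTCNNNGAA, to the NF-kB motif or to the TATA box letters TATAAA was found in these 5 windows, which says only that the letters are absent there. Binding at these windows was not measured here.

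In GRCm38 coordinates of GENCODE M21, Saa3 (ENSMUSG00000040026) lies on chromosome 7 from 46711998 to 46715700 and Hp (ENSMUSG00000031722) on chromosome 8 from 109575128 to 109579172. Lcn2 (ENSMUSG00000026822) lies on chromosome 2 from 32384633 to 32388252, and Slpi (ENSMUSG00000017002) lies on chromosome 2 from 164354070 to 164389095. Wfdc17 (ENSMUSG00000069792) lies on chromosome 11 from 83703991 to 83706268, and U90926 (ENSMUSG00000029409) lies on chromosome 5 from 92209893 to 92215408.

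Total counts were 15532373 to 19417581 in the 12 peritoneal and 3081707 to 4645148 in the 36 bone marrow-derived libraries, so low genes are measured less precisely in the latter. Levels are counts scaled to the library total (CPM) with TMM scaling, computed apart for peritoneal cells and bone marrow-derived cells, and levels of different genes are not compared. The genotype field calls all bone marrow-derived cells wild-type, while titles and descriptions separate WT from KO. Trp53 itself ranged from 4.79 to 13.2 CPM in the 18 WT and from 2.70 to 9.11 CPM in the 18 KO libraries, and since the labels do not say which part was deleted, this 3′ tag checks nothing. The p53 targets Cdkn1a (555 to 1119 CPM in WT, 34.1 to 292 CPM in KO) and Ccng1 (74.8 to 240 CPM in WT, 25.1 to 43.8 CPM in KO) separated the genotypes in every library. All 7 macrophage markers, Adgre1 and Csf1r among them, had counts in all 48 libraries. Over the 6 genes, the median ratio of a library to the higher of the other two in its group was largest in WT_M2 vehicle replicate 1 (10.2, highest for 6 genes) and next in KO_M2 vehicle replicate 3 (1.91, highest for 5). KO_M1 vehicle replicate 2 (1.36) was also highest of its group for 6 genes, and KO_M0 vehicle replicate 2, treated WT_M1 replicate 1 and treated KO_M2 replicate 1 for 5 each (1.57, 1.08 and 1.15). Treated KO_M0 replicate 3 held the lowest LPS and IFN-γ marker sum of its group (883 CPM against 3772 and 3046 CPM) and was in the replicate pair that differed most over all genes. Values without WT_M2 vehicle replicate 1, KO_M2 vehicle replicate 3 or treated KO_M0 replicate 3, or spans over all alternatives, are given beside the results they move.

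All 6 genes were far higher in WT_M1 than in resting WT_M0 macrophages, the values for which they were chosen. Saa3 stood at 66544, 69369 and 73120 CPM in the 3 WT_M1 vehicle libraries, which was 5.79% to 6.25% of all counts, against 72.0, 421 and 628 CPM in WT_M0. Hp stood at 156, 132 and 154 CPM in WT_M1 against 4.94, 9.32 and 11.5 CPM in WT_M0. Lcn2 stood at 2138, 2089 and 1885 CPM in WT_M1 against 26.0, 17.9 and 16.4 CPM in WT_M0. The lowest WT_M1 library of each of these 3 acute-phase genes was above the highest WT_M0 library. Among the antiproteases, Slpi stood at 1371, 1845 and 1141 CPM in WT_M1 against 48.2, 66.0 and 66.7 CPM in WT_M0. Wfdc17 stood at 2740, 3303 and 2347 CPM in WT_M1 against 372, 273 and 264 CPM in WT_M0. Both were again above WT_M0 in every library, and Wfdc17 had the smaller difference of the pair (log2 fold change 3.21, SE 0.362, against 4.59, SE 0.787, for Slpi). U90926 stood at 958, 1219 and 961 CPM in WT_M1 and had 0 counts in all 3 WT_M0 vehicle libraries. Its 11634 counts against 0 put it at least 3561-fold higher in WT_M1, taking 3 counts over the WT_M0 group as the floor. For the other members the log2 fold changes were 7.54 (SE 1.09) for Saa3, 6.66 (SE 0.810) for Lcn2 and 4.10 (SE 0.506) for Hp. In this contrast 6 of 6 genes did not overlap between the groups, where 19.6% of the 11779 genes tested lay higher in all 3 libraries; since the contrast chose the genes, nothing is read from that count. Against WT_M2 the log2 fold changes were 5.78 for Saa3, 4.52 for Hp, 5.58 for Lcn2, 2.83 for Slpi, 3.07 for Wfdc17 and 8.46 for U90926, again with 6 of 6 genes above without overlap (20.6% of all genes). WT_M2 vehicle replicate 1 lowers these values, and without it they were 8.53 for Saa3, 6.85 for Hp, 7.72 for Lcn2, 5.54 for Slpi, 3.86 for Wfdc17 and 10.1 for U90926.

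**Figure D1:**
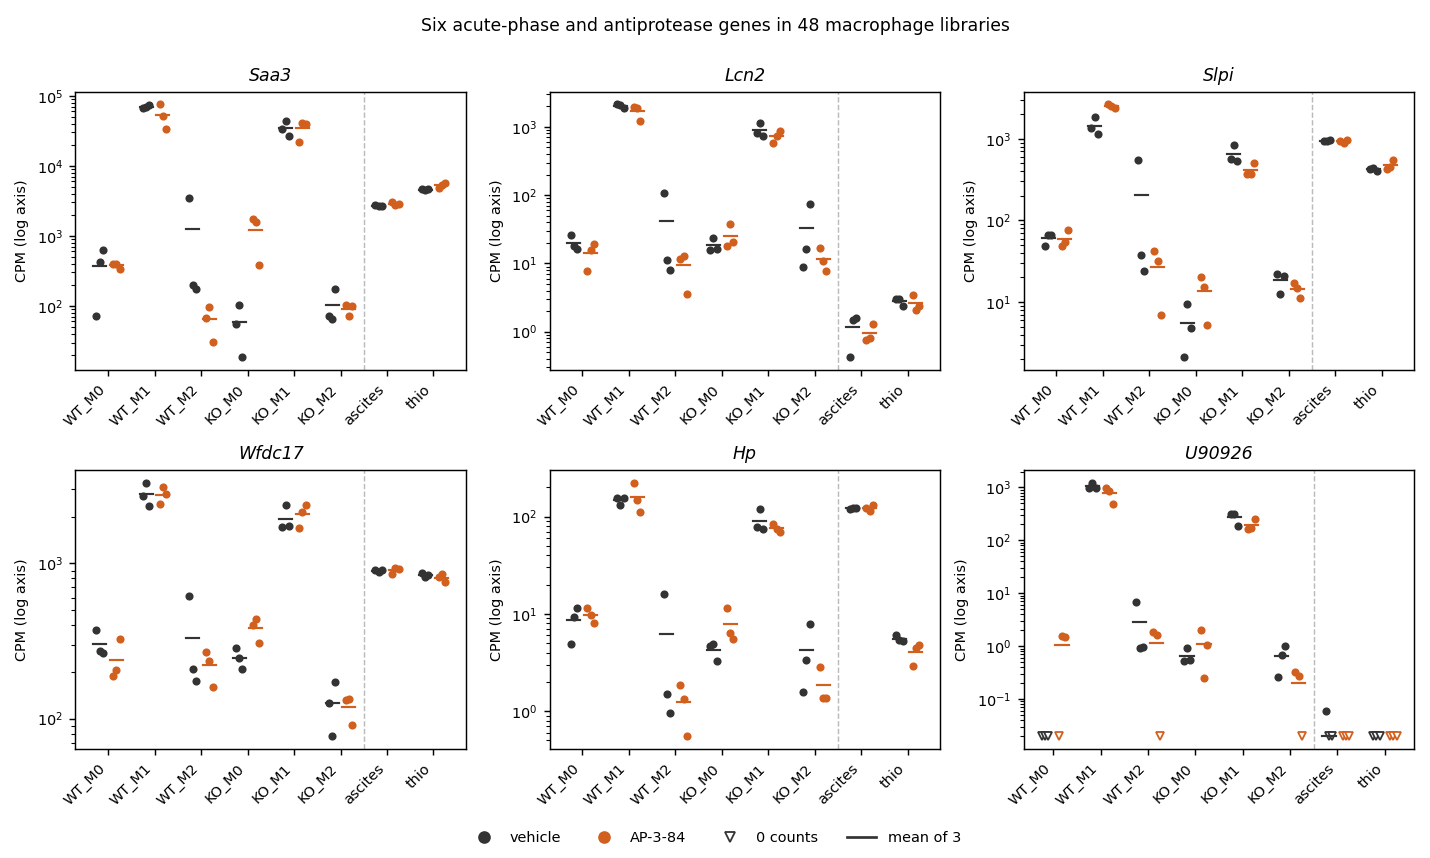
CPM on a log axis in each of the 48 libraries for the 6 genes, by population; black points are vehicle and orange points AP-3-84 libraries, short lines are means of 3, and open triangles mark libraries with 0 counts. For Saa3, Lcn2, Wfdc17, Hp and U90926 the 12 M1 libraries lie above the 24 other bone marrow-derived libraries, while for Slpi WT_M2 vehicle replicate 1 (550 CPM) reaches into the M1 range; peritoneal libraries, right of the dashed line, were scaled apart.

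In the KO macrophages, whose counts were not part of the rule of choice, all 6 genes were also higher after LPS and IFN-γ. KO_M1 cells had the same stimulus as WT_M1, and the genes were chosen with earlier results of these data known. A rise in KO_M1 is therefore no independent check of the choice. In KO_M1 vehicle libraries Saa3 stood at 33235, 44342 and 26361 CPM, against 55.0, 102 and 18.4 CPM in KO_M0 and 71.4, 64.6 and 176 CPM in KO_M2. Hp stood at 78.3, 118 and 74.8 CPM in KO_M1, against 4.72, 4.93 and 3.25 CPM in KO_M0 and 1.59, 3.38 and 7.94 CPM in KO_M2. Lcn2 stood at 826, 1133 and 746 CPM in KO_M1, against 16.0, 23.4 and 16.2 CPM in KO_M0 and 8.76, 16.0 and 73.9 CPM in KO_M2. The KO_M1 libraries of the 3 acute-phase genes lay above all KO_M0 and KO_M2 vehicle libraries, with KO_M1 replicate 2 the highest of its group each time. Slpi stood at 568, 842 and 534 CPM in KO_M1, against 2.10, 9.54 and 4.87 CPM in KO_M0 and 22.0, 12.6 and 21.1 CPM in KO_M2. Wfdc17 stood at 1704, 2366 and 1749 CPM in KO_M1, against 286, 247 and 209 CPM in KO_M0 and 127, 77.3 and 172 CPM in KO_M2. U90926 stood at 316, 319 and 185 CPM in KO_M1, against 0.524, 0.923 and 0.541 CPM in KO_M0 and 0.265, 0.676 and 0.992 CPM in KO_M2. Neither antiprotease and no U90926 library overlapped between KO_M1 and the other states.

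In edgeR's quasi-likelihood test with Benjamini-Hochberg adjustment over 11779 genes (called at an adjusted p under 0.05), 6 of 6 genes were higher in KO_M1 than in KO_M0, where 44.5% of all genes were called, 22.8% were called higher and 25.1% lay higher without overlap. Saa3 rose 595-fold (9.22 on the log2 scale, SE 1.18, adjusted p 1.28e-06), and U90926 rose 399-fold (8.64, SE 0.625, adjusted p 3.95e-10). U90926 had 7 counts in KO_M0 and 3237 in KO_M1 vehicle libraries. It passed the filter on low counts through the M1 groups, so the size of its rise is imprecise. Slpi rose 120-fold (6.90, SE 0.936, adjusted p 2.74e-06) and Lcn2 48.7-fold (5.61, SE 0.781, adjusted p 3.84e-06). Hp rose 21.0-fold (4.39, SE 0.549, adjusted p 6.37e-07) and Wfdc17 rose 7.84-fold (2.97, SE 0.359, adjusted p 3.75e-07). The median log2 fold change of the 6 genes was 6.26, against -0.01 over all genes. In the same test against KO_M2, with the same KO_M1 libraries, 6 of 6 genes were higher, where 25.4% of all genes were called, 12.4% were called higher and 17.8% lay higher without overlap. There the log2 fold changes were 8.38 for Saa3, 4.38 for Hp, 4.78 for Lcn2, 5.13 for Slpi, 3.95 for Wfdc17 and 8.64 for U90926 (adjusted p from 3.55e-10 to 4.39e-05). Over all alternatives Lcn2 ranged from 4.33 to 6.20 and Hp from 4.01 to 5.16. All 12 calls held under every alternative run. Neutrophils also carry Lcn2 and Hp, and the summed level of 14 neutrophil markers was 1631 to 2841 CPM in KO_M1 against 674 to 835 CPM in KO_M0 vehicle libraries, with 13 or 14 of them detected in each library and, of 11 tested, 5 called higher (Mpo, Prtn3, Ctsg, Cxcr2 and Mmp8) and 0 lower. The part of other cells' RNA in these rises was not tested, and in bulk RNA more cells of a type and more RNA per cell cannot be told apart.

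Within M1, the KO libraries were lower than the WT libraries for 5 of 6 genes without overlap, where 16.7% of all genes lay lower in all 3 libraries. The difference was largest for U90926, at a log2 fold change of -1.94 (SE 0.372), which is 3.83-fold lower in KO_M1 than in WT_M1. It was -1.18 (SE 0.629) for Lcn2, -1.16 (SE 0.681) for Slpi, -1.01 (SE 0.827) for Saa3 and -0.70 (SE 0.424) for Hp. Wfdc17 overlapped between the genotypes, at -0.53 (SE 0.333), with KO_M1 replicate 2 (2366 CPM) above WT_M1 replicate 3 (2347 CPM). Marker sums also differed without overlap, lower in KO_M1 for the LPS and IFN-γ and the macrophage lists and higher for the neutrophil list. The LPS and IFN-γ markers were 6089 to 8617 CPM in KO_M1 and 10962 to 12063 CPM in WT_M1, with all 17 detected in every library, and the macrophage markers were 16073 to 25150 CPM and 43565 to 46541 CPM, with all 7 detected. Neutrophil markers were 1631 to 2841 CPM in KO_M1 and 764 to 977 CPM in WT_M1 (13 or 14 and 11 or 12 of 14 detected). Their part in the differences was not tested. These values describe the group that chose the genes and were not tested.

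Resting KO macrophages held less Slpi than resting WT macrophages, while Saa3 was lower by its mean but overlapped between the genotypes. In KO_M0 against WT_M0, 2 of 6 genes were called, both lower, where 33.2% of all genes were called and 16.8% were called lower. The share called among the 6 was close to that over all genes, so nothing is read from this count. Slpi ranged from 2.10 to 9.54 CPM in KO_M0 and from 48.2 to 66.7 CPM in WT_M0, with no overlap (log2 fold change -3.48, SE 0.874, adjusted p 0.00369), and this call held under every alternative run. For Saa3 the means were 58.4 ± 41.9 CPM in KO_M0 and 374 ± 281 CPM in WT_M0 (SD, n = 3), a difference of -2.68 on the log2 scale (SE 0.893, adjusted p 0.0232), but WT_M0 replicate 1 (72.0 CPM) lay below KO_M0 replicate 2 (102 CPM). The Saa3 call was lost without WT_M0 vehicle replicate 3 and without KO_M0 vehicle replicates 1 and 3 (adjusted p 0.0943, 0.0635 and 0.104, with 3.95e-46 to 0.134 as the span of all alternatives). Since the groups overlapped, nothing is read from the low end of that span. Of the uncalled genes, Hp lay lower in all 3 KO_M0 libraries (log2 fold change -0.99, 95% interval -2.22 to 0.24), and U90926 had 7 counts in KO_M0, present in every library, against 0 in WT_M0. Non-overlap was seen downward for 22.9% and upward for 24.8% of all genes. Lcn2 differed by -0.13 (95% interval -1.62 to 1.36) and Wfdc17 by -0.29 (95% interval -0.98 to 0.40). The summed LPS and IFN-γ markers, which list Marco, Nos2 and 15 others, were 1568 to 2718 CPM in WT_M0 and 229 to 260 CPM in KO_M0 vehicle libraries, with 6 of 17 called lower and 2 called higher. Fibroblast markers moved the other way, from a summed 22.5 to 26.2 CPM in WT_M0 to 161 to 287 CPM in KO_M0, with 3 of 4 called higher. The part of either in these differences was not tested.

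After IL-4 and IL-13, 1 WT_M2 vehicle library stood far above the other two. Saa3 stood at 3421 CPM in WT_M2 vehicle replicate 1 and at 201 and 174 CPM in replicates 2 and 3. Slpi stood at 550 CPM in that library and at 38.0 and 23.7 CPM in replicates 2 and 3, and Lcn2 at 107 CPM against 11.2 and 7.92 CPM. The same library held 613 CPM of Wfdc17 (210 and 174 CPM in replicates 2 and 3), 16.1 CPM of Hp (1.51 and 0.950 CPM) and 24 counts of U90926 (3 and 3 counts). Replicate 1 was thus the highest of the group for all 6 genes, and its neutrophil marker sum (12 or 13 of 14 markers detected in each library) was 4344 CPM against 656 and 528 CPM. Its LPS and IFN-γ marker sum was 3785 CPM against 1350 and 685 CPM. The part of either in the levels of this library was not tested.

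**Figure D2:**
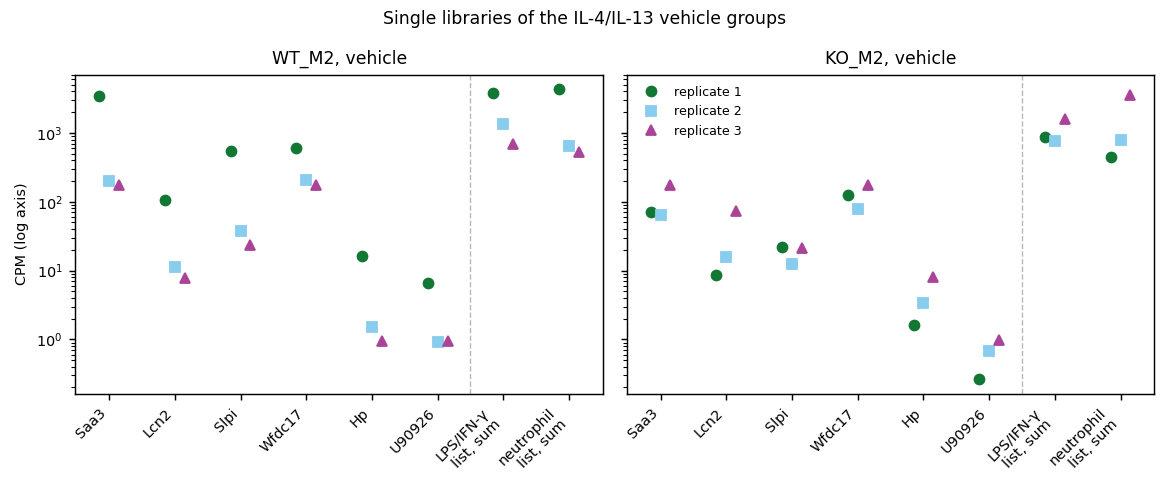
CPM on a log axis in the single vehicle libraries of WT_M2 (left) and KO_M2 (right) for the 6 genes and, right of the dashed line, for the summed LPS and IFN-γ and neutrophil marker lists. WT_M2 replicate 1 is highest for all 6 genes and both lists; KO_M2 replicate 3 is highest for 5 of 6 genes and both lists.

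In WT_M2 against WT_M0, 1 of 6 genes was called, U90926, where 23.4% of all genes were called and 12.7% were called higher. It had 30 counts in WT_M2 vehicle libraries against 0 in WT_M0, at least 10.8-fold higher by the same floor (adjusted p 0.00416), with no overlap (19% of all genes). Of those 30 counts 24 were in replicate 1, and the gene passed the filter on low counts through the M1 groups for which it was chosen. With only the libraries of WT_M2 and WT_M0 it was filtered out and 0 genes were called, so nothing is read from this call. It was also lost without WT_M2 vehicle replicate 1 (adjusted p 0.0669, with 2.13e-10 to 0.0744 as the span of all alternatives that gave a value). Without that library Saa3, Lcn2 and Slpi turned from higher to lower in WT_M2 (log2 fold changes of 1.76, 1.08 and 1.76 with it and -1.02, -1.08 and -0.97 without it), uncalled either way. Hp, uncalled with every library at -0.41, was lower without it (log2 fold change -2.77, adjusted p 0.00123, with 0.00028 to 0.973 as the span of all alternatives). Slpi was called higher without WT_M2 vehicle replicate 2 or 3 (adjusted p 0.0237 and 0.0154, span 7.53e-18, without a filter on low counts, to 0.443). In KO_M2 against KO_M0, 1 of 6 genes was called, Wfdc17, where 38% of all genes were called and 18% were called lower. The Wfdc17 means were 125 ± 47.6 CPM in KO_M2 and 247 ± 38.1 CPM in KO_M0 (SD, n = 3), a difference of -0.98 on the log2 scale (SE 0.341, adjusted p 0.0250), with no overlap (24% of all genes lay lower so). That call was lost without KO_M0 vehicle replicate 1 and KO_M2 vehicle replicates 1 and 2 (adjusted p 0.0714, 0.0572 and 0.138, and 1.19e-06 at the lowest among all alternatives). Slpi lay higher in all 3 KO_M2 libraries, as 23.7% of all genes did, without being called (log2 fold change 1.78, 95% interval -0.09 to 3.64), and Saa3, Lcn2, Hp and U90926 overlapped.

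Between the genotypes in M2, Saa3, Slpi and Wfdc17 were lower in KO_M2 than in WT_M2, 3 of 6 genes, where 3.56% of all genes were called and 2.34% were called lower. Slpi and Wfdc17 did not overlap (9.27% of all genes lay lower so), and Saa3 did. The log2 fold changes were -3.61 (SE 0.916, adjusted p 0.0275) for Saa3, -3.46 (SE 0.778, adjusted p 0.0136) for Slpi and -1.41 (SE 0.343, adjusted p 0.0197) for Wfdc17. Without WT_M2 vehicle replicate 1, 0 of 6 genes were called, and the log2 fold changes of the 3 were -0.86, -0.75 and -0.62 (adjusted p 0.537, 0.437 and 0.216). The calls were also lost without KO_M2 vehicle replicate 2 (adjusted p 0.128, 0.0802 and 0.125). Those of Saa3 and Slpi were lost without replicate 3 (adjusted p 0.0740 and 0.0730), and that of Saa3 without replicate 1 (0.0580). Among all alternatives the lowest adjusted p was 1.13e-76, 5.70e-58 and 4.71e-12, each without a filter on low counts, and the highest was 0.537, 0.593 and 0.358. With WT_M2 vehicle replicate 1 and KO_M2 vehicle replicate 3 both left out, a choice made after seeing the data, 0 of 6 genes and 0.39% of the 12043 genes tested were called. The comparisons that use the WT_M2 vehicle libraries share them and are not independent.

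Ranked by group mean, the 4 M1 groups came first for all 6 genes among the 12 bone marrow-derived groups. The M1 groups include the WT_M1 groups that chose the genes, so this ranking and the ratios below are descriptions only. How many of all genes separate in this way was not counted. The lowest of the 12 M1 libraries exceeded the highest of the 24 others by 24.6 times for U90926, 6.39 times for Saa3, 5.49 times for Lcn2, 4.30 times for Hp and 2.77 times for Wfdc17. For Slpi it was lower, at 0.665 times, and the highest other library was WT_M2 vehicle replicate 1 for each of the 6. Without that library, the lowest M1 library exceeded the highest of the 23 others by 81.2 times for U90926, 12.7 times for Saa3, 7.99 times for Lcn2, 6.03 times for Hp, 4.84 times for Slpi and 3.86 times for Wfdc17. Below the M1 groups, the ranges of neighbouring groups in the ranking overlapped throughout for Saa3, Lcn2, Wfdc17 and U90926. For Slpi the ranking broke there only between WT_M0 with AP-3-84 (59.7 CPM) and WT_M2 with AP-3-84 (26.9 CPM). For Hp it broke between KO_M0 vehicle (4.30 CPM) and KO_M2 with AP-3-84 (1.87 CPM).

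In the peritoneum, ascites macrophages held more Hp and Slpi and less Saa3 and Lcn2 than thioglycollate macrophages. Hp stood at 119, 122 and 124 CPM in ascites vehicle libraries and at 6.07, 5.34 and 5.32 CPM in thio. Slpi stood at 943, 935 and 956 CPM in ascites and at 429, 444 and 399 CPM in thio. Saa3 stood at 2737, 2639 and 2702 CPM in ascites and at 4614, 4522 and 4600 CPM in thio. None of these 3 genes overlapped between the populations, and replicates lay close together. Lcn2 was near the bottom of the measured range, with 7, 30 and 29 counts in ascites and 47, 50 and 44 in thio. Wfdc17 stood at 904, 878 and 913 CPM in ascites and at 868, 820 and 841 CPM in thio. U90926 had 1 count in 1 ascites vehicle library and 0 in the other 11 peritoneal libraries, and did not pass the filter on low counts.

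Of the 5 genes tested, 2 were called higher and 2 lower in ascites, where 33.7% of all 16955 genes were called, 20.3% higher and 13.4% lower, and 26.7% lay higher and 20.4% lower without overlap. Hp was 21.8-fold higher in ascites (log2 fold change 4.45, SE 0.125, adjusted p 2.38e-14) and Slpi 2.23-fold higher (log2 fold change 1.16, SE 0.0766, adjusted p 1.70e-09). Saa3 was 1.70-fold lower (log2 fold change -0.77, SE 0.0608, adjusted p 1.80e-08), and these 3 calls held under every alternative run. Lcn2 was lower by -1.26 (SE 0.435, adjusted p 0.0328), a call lost without ascites vehicle replicate 1 and without thio vehicle replicates 1 and 2 (adjusted p 0.121, 0.0851 and 0.0908, with 0.0129 the lowest of all alternatives). Wfdc17 was not called (log2 fold change 0.09, 95% interval -0.03 to 0.21, adjusted p 0.267). The median log2 fold change of the 5 genes was 0.09, against 0.05 over all genes. Slpi is also made by epithelia, and the summed level of 11 epithelial and mesothelial markers was 222 to 264 CPM in ascites and 5.32 to 6.77 CPM in thio vehicle libraries, with all 11 detected in each ascites and 7 in each thio library and 9 of 10 tested called higher. The LPS and IFN-γ list moved the same way, at 2638 to 2657 CPM in ascites and 160 to 185 CPM in thio, with 15 of 16 tested called higher. Neutrophil markers summed to 169 to 210 CPM in ascites and 310 to 322 CPM in thio (7 to 9 and 6 to 8 of 14 detected), with 2 of 5 tested called lower (S100a8 and Mmp8) and 0 higher. Fibroblast markers summed to 33.6 to 52.2 CPM in ascites and 17.8 to 28.3 CPM in thio, with all 4 detected in every library and 3 called higher (Col1a1, Col3a1 and Dcn). The part of these in the differences was not tested, and tumour, mouse genotype and time cannot be told apart here.

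By edgeR, AP-3-84 changed Saa3 in 2 of the 7 tested populations, upward in KO_M0 and downward in WT_M2, a call lost without any 1 of several libraries, and none of the other members was called in any of the 7. DESeq2 called Slpi and Hp besides Saa3 in WT_M2 (adjusted p 0.00433 and 0.0397). In KO_M0 Saa3 stood at 1715, 1557 and 387 CPM with the compound and at 55.0, 102 and 18.4 CPM with vehicle. All 3 treated libraries were above all 3 vehicle libraries, and treated replicate 3 was the lowest of its group. The rise was 20.9-fold (log2 fold change 4.39, 95% interval 2.42 to 6.36, adjusted p 0.00210), and it was called under every alternative run (adjusted p at most 0.0439). Without treated replicate 3 the log2 fold change was 4.82. It was the 1 gene of 6 called, where 20.7% of all genes were called and 12.1% were called higher. Wfdc17 and Hp also lay above vehicle in every treated KO_M0 library without being called. Wfdc17 stood at 403, 440 and 305 CPM with the compound (log2 fold change 0.63, 95% interval -0.06 to 1.32) and Hp at 11.4, 6.41 and 5.56 CPM (log2 fold change 0.86, 95% interval -0.39 to 2.11). A non-overlap upward was seen for 15.4% of all genes. Slpi (log2 fold change 1.35, 95% interval -0.56 to 3.25), Lcn2 (0.46, -1.01 to 1.94) and U90926 (0.73, -1.49 to 2.95) overlapped.

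The other listed genes were also read in treated against vehicle KO_M0 libraries, where 20.7% of all genes were called and 12.1% were called higher. The LPS and IFN-γ marker sum was 3772, 3046 and 883 CPM in treated replicates 1, 2 and 3, in the same order as Saa3, against 229 to 260 CPM with vehicle. Of its 17 genes, 8 were called higher, Marco among them (log2 fold change 6.80, adjusted p 3.74e-06), and 0 lower. Neutrophil markers summed to 350, 340 and 591 CPM in treated and 674 to 835 CPM in vehicle libraries, with 0 of 11 called (edgeR). Macrophage markers summed to 17926 to 38791 CPM in treated and 32252 to 38950 CPM in vehicle libraries. Fibroblast markers summed to 50.6 to 223 CPM and 161 to 287 CPM. The part of any of these in the Saa3 response was not tested. Of 7 further acute-phase genes tested, 2 were called higher, of which Cp, the copper-carrying ferroxidase ceruloplasmin, rose by 4.31 (adjusted p 1.31e-05). Of 19 regulators tested, 6 were called higher, including the cytokines Tnf (log2 fold change 3.24, adjusted p 9.84e-06) and Il1b (2.43, adjusted p 0.0167), and 3 lower, including the myeloid factor Cebpa (-0.96, adjusted p 0.0481). Of 22 antiproteases tested, 0 were called higher and 2 lower, the metalloproteinase inhibitor Timp2 (-1.44, adjusted p 8.62e-05) and the serpin Serpinb6a (-0.73, adjusted p 0.00214). Of 14 receptors and partners tested, 2 were called higher and 2 lower. The shares called among these acute-phase genes, antiproteases and receptors were not far above that over all genes, or below it. Nothing is read from those counts. The SAA and formyl peptide receptors Fpr1 and Fpr2 rose by 5.99 and 5.36 (adjusted p 2.32e-05 and 1.37e-05), and P2rx7 and Lrp1 were lower (log2 fold changes -0.79 and -0.74, adjusted p 0.0186 and 0.00812).

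In WT_M0 the compound left Saa3 at 401, 397 and 336 CPM against 72.0, 421 and 628 CPM with vehicle (log2 fold change 0.02, 95% interval -1.69 to 1.72). The vehicle libraries spread more widely than the treated ones there, and 0 of 6 genes were called, where 0.144% of all genes were; 1 gene, U90926, had an unadjusted p under 0.05 and DESeq2 also called 0. U90926 had 12 counts in treated WT_M0 libraries against 0 with vehicle. The gene passed the filter on low counts through the M1 groups, so nothing is read from its unadjusted p. The test of the difference gave a larger Saa3 response in KO_M0 than in WT_M0, by 4.37 on the log2 scale (SE 1.23, adjusted p 0.0162), and it held under every alternative run (adjusted p at most 0.0491). It was 1 of 6 genes called, where 17% of all genes were called and 10% were called higher. This difference, the KO_M0 response and the comparison of KO_M0 with WT_M0 share the KO_M0 vehicle libraries and are not independent. With the compound, KO_M0 averaged 1220 ± 725 CPM and WT_M0 averaged 378 ± 36.7 CPM of Saa3 (SD, n = 3).

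In WT_M2 Saa3 stood at 67.6, 96.2 and 30.9 CPM with the compound against 3421, 201 and 174 CPM with vehicle. All treated libraries were below all vehicle libraries (8.78% of all genes lay so), with vehicle replicate 1 far above the rest. The log2 fold change was -4.28 (SE 0.950, adjusted p 0.0218), and Saa3 was the 1 gene of 6 called, where 1.21% of all genes were called and 0.976% were called lower. Without WT_M2 vehicle replicate 1 the log2 fold change was -1.53 and not called (adjusted p 0.374), and 0 of 6 genes were called. The call was also lost without treated replicates 1, 2 and 3 (adjusted p 0.142, 0.0854 and 0.101), and all alternatives spanned 1.92e-101, without a filter on low counts, to 0.436. Slpi (log2 fold change -2.93, adjusted p 0.0543), Hp (-2.34, adjusted p 0.178) and Lcn2 (-2.18, adjusted p 0.197) were not called, and without the same library they stood at -0.21, -0.01 and -0.03. Slpi was called without WT_M2 vehicle replicate 2 or 3 (adjusted p 0.0165 and 0.00519, span 1.22e-43 to 0.921), and Hp without replicate 3 (adjusted p 0.0397, span 3.69e-07 to 1). The low end of both spans came without a filter on low counts. The difference of the responses in KO_M2 and WT_M2 was called for 0 of 6 genes, where 1.77% of all genes were called. For Saa3 it was 4.10 (95% interval 1.56 to 6.65, adjusted p 0.0945), 2 genes had an unadjusted p under 0.05, and DESeq2 called 1. Saa3 was called without WT_M2 vehicle replicate 3 (adjusted p 0.0414, span 3.06e-54 to 0.500), and nothing is read from the low end of that span. In KO_M2 itself, 0 of 6 genes were called by edgeR and by DESeq2, where 0.0509% of all genes were, and 0 had an unadjusted p under 0.05. Saa3 stood there at 104, 72.6 and 99.4 CPM with the compound (log2 fold change -0.18, 95% interval -1.93 to 1.57). Lcn2 had a log2 fold change of -1.50 in KO_M2 and ranged from -1.95 to -0.10 over all alternatives.

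Macrophages already activated by LPS and IFN-γ kept Saa3 far above the other states under the compound. In KO_M1 Saa3 stood at 21848, 41332 and 39760 CPM with AP-3-84 (log2 fold change -0.01, 95% interval -1.70 to 1.68), overlapping vehicle. Slpi stood at 369, 366 and 503 CPM against 568, 842 and 534 CPM, all 3 treated below all 3 vehicle libraries (log2 fold change -0.65, 95% interval -2.05 to 0.74, adjusted p 1). A non-overlap downward was seen for 3.87% of all genes there. By edgeR 0 of 6 genes were called in KO_M1, where 0% of all genes were; 0 members and 206 of all genes had an unadjusted p under 0.05, and DESeq2 called 0 of both. The Saa3 response was smaller in KO_M1 than in KO_M0, by -4.40 on the log2 scale (SE 1.23, adjusted p 0.0326), 1 of 6 genes, where 6.12% of all genes were called and 4.78% were called lower. That call was lost without any one of 8 of the 12 libraries. These were KO_M0 vehicle replicates 1 and 3 (adjusted p 0.0724 and 0.0788), KO_M0 treated replicates 1 and 2 (0.0829 and 0.0954), KO_M1 vehicle replicate 2 (0.0534) and KO_M1 treated replicates 1, 2 and 3 (0.0752, 0.0666 and 0.0624). The lowest adjusted p of all alternatives was 1.40e-64, without a filter on low counts.

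In WT_M1, described without a test, Saa3 stood at 75432, 51911 and 33944 CPM with the compound (log2 fold change -0.37, 95% interval -2.07 to 1.32). Slpi moved the other way from KO_M1, to 2641, 2535 and 2409 CPM against 1371, 1845 and 1141 CPM with vehicle, with no overlap (log2 fold change 0.80, SE 0.675). U90926 stood at 956, 861 and 495 CPM, all below the 3 vehicle libraries (log2 fold change -0.44, SE 0.359). These were 1 of 6 genes above and 1 of 6 below without overlap, where 9.6% and 8.73% of all genes lay so. Lcn2, Wfdc17 and Hp overlapped, with log2 fold changes of -0.28, -0.02 and 0.12. Whether the responses of Slpi differ between WT_M1 and KO_M1 was not tested.

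**Figure D3:**
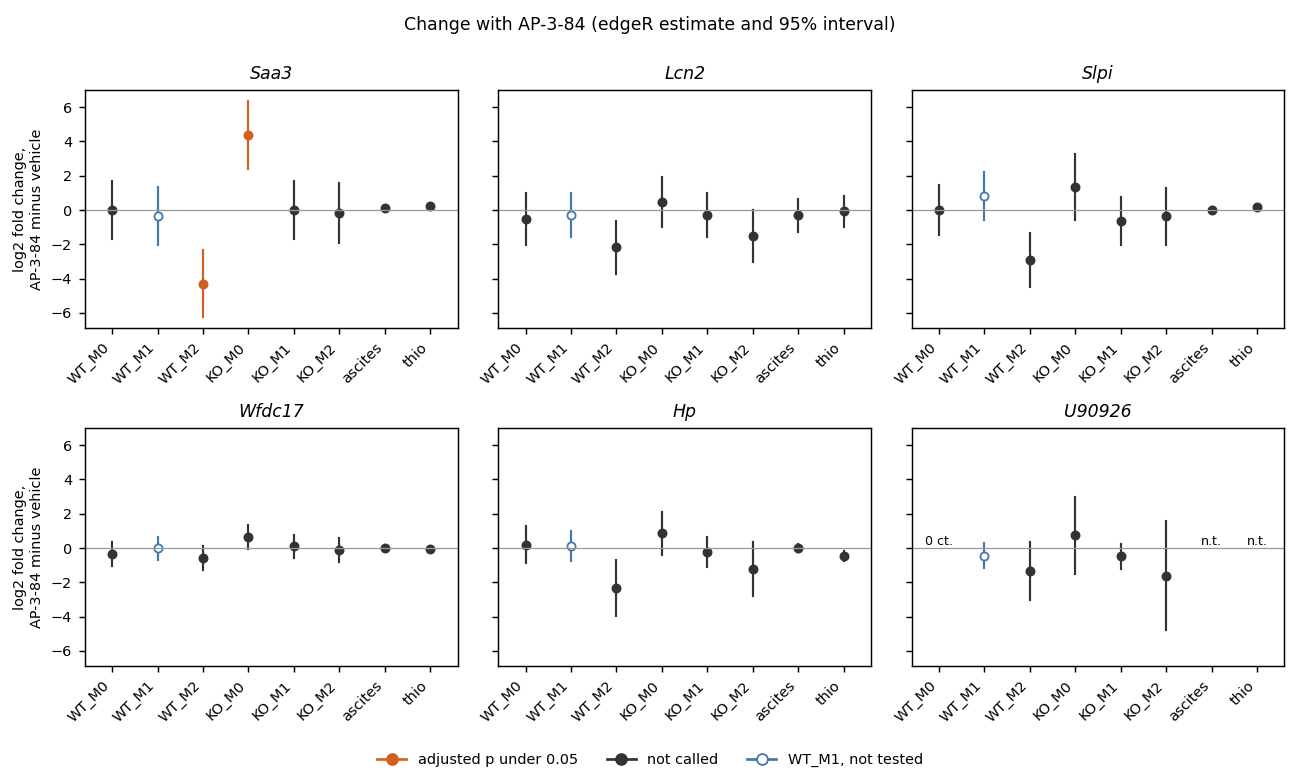
Log2 fold change of AP-3-84 against vehicle in each population for the 6 genes, with points for the edgeR estimate and bars for its 95% interval; orange marks an adjusted p under 0.05, open blue points mark WT_M1, which was not tested, n.t. marks genes filtered out and 0 ct. a vehicle group with 0 counts. Saa3 in WT_M2 (-4.28) and KO_M0 (4.39) are the 2 called values.

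In the peritoneal populations no member passed the threshold. Saa3 in ascites stood at 3083, 2745 and 2842 CPM with the compound, each above the highest vehicle library (2737 CPM), at a log2 fold change of 0.10 (95% interval -0.03 to 0.23, adjusted p 0.608). Slpi, Wfdc17 and Hp there differed by -0.01, 0.01 and 0.01, with 95% intervals of -0.17 to 0.15, -0.12 to 0.13 and -0.21 to 0.22. Lcn2, on few counts, had wider intervals, at -0.30 (95% interval -1.27 to 0.67) in ascites and -0.08 (95% interval -0.96 to 0.81) in thio. In ascites 0 of 5 genes were called by edgeR and by DESeq2, and 0 had an unadjusted p under 0.05, where 1.79% of all genes were called. In thio Saa3 stood at 4850, 5372 and 5696 CPM with the compound, all above vehicle (log2 fold change 0.21, 95% interval 0.08 to 0.34, adjusted p 0.0581). Hp stood at 2.91, 4.41 and 4.82 CPM, all below vehicle (log2 fold change -0.46, 95% interval -0.77 to -0.16, adjusted p 0.0899). Non-overlap of this kind was seen upward for 9.86% of all genes in ascites and 12.7% in thio, and downward for 10.6% in thio. In thio 0 of 5 genes were called by edgeR and by DESeq2, where 4.32% of all genes were, and 3 (Saa3, Slpi and Hp) had an unadjusted p under 0.05. Saa3 was called there without thio treated replicate 1 and Hp without thio treated replicate 3, each 1 of 5 genes (adjusted p 0.0138 and 0.0458, with spans over all alternatives of 0.00935 to 0.235 and 0.0190 to 0.401). The responses of ascites and thio differed for 0 of 5 genes by edgeR and by DESeq2, where 0.118% of all genes were called, and 1 gene, Hp, had an unadjusted p under 0.05 (difference 0.47, 95% interval 0.10 to 0.84, adjusted p 0.536).

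The other genes of the acute-phase and antiprotease groups were read in KO_M1 against KO_M0, where 44.5% of all genes were called and 22.8% were called higher. Of 27 further acute-phase genes listed, 7 were tested, 4 of them called higher and 0 lower, with a median log2 fold change of 2.48 against -0.01 over all genes. Cp stood at 4.82 ± 3.59 CPM in KO_M0 and rose to 92.2 ± 24.0 CPM (SD, n = 3), by 4.23 on the log2 scale (adjusted p 2.93e-06). Saa1, a serum amyloid A of the liver, and the lipocalin Orm1 had 0 counts in KO_M0 and 76 and 120 counts in KO_M1, at least 21.8-fold and 34.4-fold higher by that floor (adjusted p 2.13e-05 and 0.00107). The liver acute-phase genes Crp, Apcs, Fga and Serpina1a, named here after their values were seen, had 0 counts in both groups. Of the 27 listed, 6 had counts in each KO_M0 and 12 or 13 in each KO_M1 vehicle library. Of 29 further antiproteases listed, 22 were tested, 11 called higher and 4 lower, with a median of 1.43. The serpin Serpinb2 rose by 6.71 (adjusted p 6.18e-06) and the cystatin relative Stfa3 by 7.90 (adjusted p 2.09e-05). Stfa1 went from 0 to 185 counts, at least 53.1-fold (adjusted p 0.00912), and the Stfa genes are close copies whose reads the counting may split. Timp2 fell by 2.61 (adjusted p 4.36e-09), Serpinf1 fell by 2.00 (adjusted p 0.0129) and Serpinb6a fell by 1.46 (adjusted p 7.03e-08).

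Of 20 regulators listed, 19 were tested in the same comparison with the same shares over all genes (44.5% called, 22.8% higher), 10 called higher and 3 lower, with a median log2 fold change of 0.60. The acute-phase cytokine Il6 went from 0 to 265 counts, at least 76.1-fold (adjusted p 8.59e-06). Il1b and Tnf, which drive acute-phase genes, rose by 5.44 and 4.43 (adjusted p 5.67e-06 and 3.74e-08). The IL-6 receptor subunits Il6ra and Il6st changed by -2.12 and -2.21 (adjusted p 7.70e-08 and 0.000293), and Cebpa fell by 2.81 (adjusted p 1.40e-06). Of 17 receptors and partners listed, 14 were tested, 6 called higher and 2 lower, with a median of 0.50. The receptors Fpr1 and Fpr2 rose by 7.31 and 6.07 (adjusted p 4.20e-07 and 5.62e-07), and Ctsg, a protease that SLPI inhibits and a neutrophil marker, rose by 4.88 (adjusted p 0.000130). The scavenging receptor Lrp1 fell by 1.32 and the ATP receptor P2rx7 fell by 1.10 (adjusted p 4.43e-06 and 0.000507). The polarization marker lists were chosen with earlier results of these data known, so they are no independent check. Of 17 LPS and IFN-γ markers, 16 were called higher and 0 lower. Marco was up by 7.38 (adjusted p 2.76e-07), Il12b was up by 8.72 (adjusted p 2.13e-08) and Nos2 stood at 146 counts against 0, at least 41.9-fold. Of 10 IL-4 and IL-13 markers, 2 were called higher, Arg1 (5.90, adjusted p 6.55e-07) and Chil3 (1.52, adjusted p 0.0374), and 4 lower, among them Mrc1 (-2.71, adjusted p 3.15e-06), Ccl24 (-3.24, adjusted p 0.0286) and Flt1 (-2.83, adjusted p 0.0366).

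The genes most like each member were found by Pearson's r of the mean log2 CPM over the 12 bone marrow-derived groups. All genes come from the same libraries, so no p is given. For Saa3 they were the complement gene Cfb (0.987), Wfdc18 (0.981) and Shisa3 (0.978). For Lcn2 they were Il23r (0.99), U90926 (0.985) and Wfdc18 (0.983), and for U90926 they were Il23r (0.991), Lcn2 (0.985) and Stfa3 (0.977). Wfdc18, a further gene with a WAP domain, stood among the 3 closest genes of Saa3, Lcn2 and Wfdc17, the last at 0.97 beside Selenow (0.983) and Peli1 (0.976). Hp was closest to Ly6i (0.976), Gys1 (0.969) and Gcnt2 (0.968). Slpi was closest to Eno1b (0.984), the scavenger receptor Msr1 (0.981) and Fam162a (0.979). Between the members, r ranged from 0.903 for Slpi and Wfdc17 to 0.985 for Lcn2 and U90926; the 12 groups include the WT_M1 groups that chose the members, so nothing is read from these values. Ranked by Spearman's rho, 1 of these 18 closest genes stayed among the first 3 of its member, Ly6i for Hp.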

How the data were processed

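The deposited table holds raw counts per gene and library, 1 Ensembl gene ID per line and all whole numbers. The submitters' processing notes name RSEM, Bowtie2 and DESeq2 without roles or versions. Genome build, annotation, strand setting and UMI use were not given in the sources used here, and floors cover counting error only. Of 51789 IDs, 51596 matched a symbol and GENCODE M21 (GRCm38), and 193 did not.

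Counts were tested with edgeR 4.0.16 in R 4.3.3 (filterByExpr by group, TMM scaling, quasi-likelihood F test, robust, two-sided, 1 mean per group, no block). Separate fits covered the 12 peritoneal libraries (16955 genes after filtering, 5 of the 6 members) and the 36 from bone marrow (11779 genes, all 6 members). A call is a Benjamini-Hochberg adjusted p under 0.05 over all genes of a comparison; 18 comparisons were tested and 4 that use WT_M1 were not. SE and 95% intervals are from that fit, and the median of all genes was within 0.05 of 0 on the log2 scale in every comparison. No 2 libraries held the same values. The script was tested on simulated data.

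The members and lists were chosen with earlier results of these data known. The text names the 6 members and, from each list, the 3 called genes of each direction with the largest change in KO_M1 against KO_M0 at an average log2 CPM of at least 1. Outside this rule, the text names single genes of the marker lists. It also names Crp, Apcs, Fga and Serpina1a, picked after their values were seen. For likeness it names the 3 genes with the highest r. Alternatives were DESeq2 size factors, scaling by total counts, no filter on low counts, DESeq2 1.42.0, a replicate block, only the libraries compared, and each library left out in turn. Values of WT_M1 against WT_M2 and of the lowest M1 library without WT_M2 vehicle replicate 1 were added after seeing the data.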

Additional observations from a re-analysis of the deposited data

Results flagged for a closer look

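For Saa3, the AP-3-84 response differed between populations in 2 tests of the difference itself. The response in KO_M0 exceeded that in WT_M0 by 4.37 on the log2 scale (edgeR adjusted p 0.0162), with 3 of 3 treated KO_M0 libraries above all vehicle libraries and overlapping ranges in WT_M0. Saa3 was 1 of 6 genes called there, where 17% of all genes were called. The response in KO_M1 was below that in KO_M0, with a difference of -4.40 (edgeR adjusted p 0.0326), and the ranges overlapped in KO_M1. Here too Saa3 was 1 of 6 genes called, where 6.12% of all genes were called. This call was lost without any 1 of 8 of the 12 libraries. Both differences use the same 6 KO_M0 libraries.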

How the results depend on the processing

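The 12 calls in KO_M1 against KO_M0 and KO_M2 and the response of Saa3 in KO_M0, with its difference from WT_M0, held under every alternative run. Of 57 member values called with all libraries or under some alternative, 765 alternative values comprised 661 with the same direction and call, 43 that lost a call, 47 that gained one and 14 that changed sign, and 47 further values were called nowhere. Counts of members called that moved by over 1.5 times are given next. Without a filter on low counts they were 2 for AP-3-84 in thio, 1 in WT_M0, 5 in WT_M2, 4 in KO_M0 and 1 in KO_M2, 4 each for KO_M2 against KO_M0, WT_M2 against WT_M0 and KO_M0 against WT_M0, and 5, 2 and 3 for the differences of response between KO_M0 and WT_M0, KO_M2 and WT_M2, and KO_M1 and KO_M0. Scaling by total counts gave 1 for AP-3-84 in thio, and it moved the median of all genes by over 0.1 in ascites against thio (0.14), AP-3-84 in WT_M2 (0.11), WT_M2 against WT_M0 (-0.20), KO_M2 against WT_M2 (0.19) and the differences between KO_M2 and WT_M2 (-0.15) and between KO_M1 and KO_M0 (0.11). DESeq2 gave 3 for AP-3-84 in WT_M2, 2 for KO_M2 against KO_M0 and 1 for the difference between KO_M2 and WT_M2. With only the libraries compared, the counts were 0 for AP-3-84 in WT_M2, 2 for KO_M2 against KO_M0, 0 for WT_M2 against WT_M0, 1 for KO_M0 against WT_M0 and 0 for KO_M2 against WT_M2. Among smaller shifts, Wfdc17 in ascites against thio was called under total counts (adjusted p 0.0237), U90926 in KO_M2 against WT_M2 was called without a filter, and DESeq2 called 3 for KO_M0 against WT_M0. The causes of these changes were not tested.

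Leaving out single libraries gave ranges of 0 to 1 for AP-3-84 in thio, 3 to 4 for ascites against thio, 0 to 3 for AP-3-84 in WT_M2, 0 to 1 for KO_M2 against KO_M0, 1 to 2 for WT_M2 against WT_M0, 1 to 2 for KO_M0 against WT_M0, 0 to 3 for KO_M2 against WT_M2, and 0 to 1 for the differences between KO_M2 and WT_M2 and between KO_M1 and KO_M0. Signs changed without WT_M2 vehicle replicate 1 for Wfdc17 under AP-3-84 in WT_M2 (0.19, range -0.89 to 0.19 over single libraries left out), for Saa3, Lcn2 and Slpi in WT_M2 against WT_M0 (-1.02, -1.08 and -0.97, with ranges up to 2.36, 1.56 and 2.28) and for Slpi in the difference between KO_M2 and WT_M2 (-0.15, range up to 3.08). Hp in WT_M2 against WT_M0 was 0.040 without WT_M2 vehicle replicate 2 and 0.068 without replicate 3 (range from -2.77). Lcn2 in KO_M2 against KO_M0 was -0.56 without KO_M2 vehicle replicate 3 (range up to 1.28). With WT_M2 vehicle replicate 1 and KO_M2 vehicle replicate 3 both left out, chosen after seeing the data, the counts were 0, 2 and 0 for AP-3-84 in WT_M2, KO_M2 against KO_M0 and KO_M2 against WT_M2. The values that changed sign were then 0.20 for Wfdc17, -0.58 for Lcn2 in KO_M2 against KO_M0, -1.01, -1.08 and -0.97 for Saa3, Lcn2 and Slpi in WT_M2 against WT_M0, and -0.045 for Slpi in the difference.

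The replicate numbers did not pair the libraries: of 24 same-numbered pairs of vehicle and treated libraries, 4 had deviations that correlated above 0.1, and 6 correlated best with their own number. A replicate block changed 2 member calls, losing Lcn2 in ascites against thio (adjusted p 0.0515) and Saa3 in KO_M2 against WT_M2 (adjusted p 0.0544), and left the counts of members called at 3 and 2. With 3 libraries a group and 3081707 to 4645148 counts per bone marrow-derived library, the intervals for Saa3 and Slpi there span several log2 units, and Hp in M0 and M2 rests on few counts.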
